A study of Homo sapiens with 4 samples.

Results

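Transcript levels of 10 human genes of haem breakdown and iron uptake, storage, export and sensing were compared between leukaemia cells retrieved from brain and from spleen. The genes were HMOX1, HMOX2, TFRC, SLC11A2, SLC40A1, FTH1, FTL, IREB2, ACO1 and SLC25A37, a list given by name and matched by Ensembl identifier. All 10 were found among the 65217 rows of the gene count table, and all 10 were among the 17075 genes that passed the filter on low counts. The cells were SEM, an established human leukaemia line of B-cell precursors with the t(4;11) KMT2A-AFF1 (MLL-AF4) fusion, and had grown in transplanted immunodeficient mice of 6 to 10 weeks of age. Each site gave 2 libraries, and every library combined the RNA of 5 mice. The labels name the first site as brain, while the collection protocol names the leptomeninges, the inner membranes around the brain. The replicate number marks 1 of 2 independent occasions of the whole experiment. No group received a drug or carried a further genetic change per the labels, so both groups share the fusion, the host type and the enrichment of leukaemic cells on a Ficoll gradient. The mouse strain is not given in the sources used here.

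Iron enters most cells as transferrin bound to the transferrin receptor, is used largely in mitochondria for haem and iron-sulfur clusters, and is stored in the ferritin shell. Macrophages of the spleen take up old red cells, open their haem with haem oxygenase and return the iron to the blood through ferroportin, which makes the spleen an iron-rich organ. Inside a cell, the iron regulatory proteins IRP1 and IRP2 bind a short RNA hairpin, the iron-responsive element, when iron is scarce. Binding near the start of a message blocks its translation, as in ferritin and ferroportin, and binding behind the coding part protects the message of the transferrin receptor from decay. For ferritin and ferroportin the message level therefore need not follow the protein level, which was not measured here.

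The hairpins of the members are shown because they are the shared letters through which iron controls several of these messages, some through translation and some through message level. The canonical transcript of each member (GENCODE release 44) was searched on its sense strand for a C, 5 bases, the loop CAGTGN and 5 bases, in which the 2 runs of 5 bases pair with each other and G-T pairs are allowed. In the sequences, 5′ to 3′ on the sense strand, the capitals mark the 6 bases of the loop.
FTH1, 5′ UTR, chr11:61967574-61967602, minus strand: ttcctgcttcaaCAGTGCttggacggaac
FTL, 5′ UTR, chr19:48965335-48965363, plus strand: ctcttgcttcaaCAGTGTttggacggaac
SLC40A1, 5′ UTR, chr2:189580661-189580689, minus strand: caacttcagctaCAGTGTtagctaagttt
TFRC, 3′ UTR, chr3:196050979-196051007, minus strand: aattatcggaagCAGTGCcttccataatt
TFRC, 3′ UTR, chr3:196050575-196050603, minus strand: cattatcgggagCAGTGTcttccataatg
TFRC, 3′ UTR, chr3:196050510-196050538, minus strand: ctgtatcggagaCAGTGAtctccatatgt
TFRC, 3′ UTR, chr3:196050463-196050491, minus strand: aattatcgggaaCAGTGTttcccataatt
SLC11A2, 3′ UTR, chr12:50988269-50988297, minus strand: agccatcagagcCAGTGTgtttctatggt
Positions are on GRCh38. FTH1, FTL and SLC40A1 each had 1 match before the coding part, and TFRC had 4 behind it. The SLC11A2 hairpin and a further one in the 3′ UTR of IREB2 matched only with 1 unpaired base allowed in the stem. HMOX1, HMOX2, ACO1 and SLC25A37 held no match, which says only that these letters are not in their canonical transcripts. Of 20046 canonical protein-coding transcripts, 262 (1.31%) held the motif, and 746 (3.72%) held it with 1 unpaired base allowed.

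**Figure D1:**
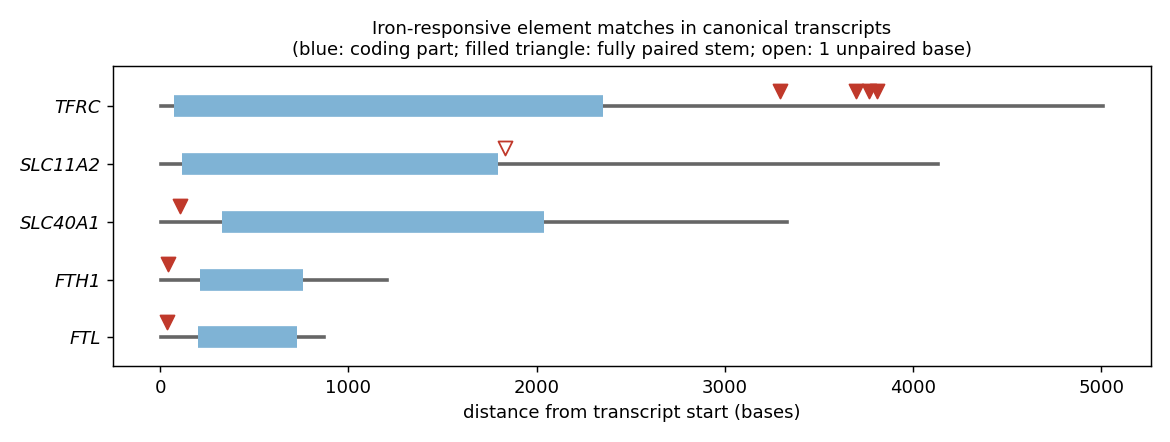
Map of the canonical transcripts of FTH1, FTL, SLC40A1, SLC11A2 and TFRC, with the distance from the transcript start in bases on the x axis, the coding part as a thick bar and each match as a triangle, open where 1 base of the stem is unpaired. The matches of FTH1, FTL and SLC40A1 lie before the coding part and those of TFRC and SLC11A2 behind it.

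Of the 10 members, 1 fell in cells from brain and none rose. The member that fell was HMOX1, the inducible haem oxygenase. The other 9 did not pass the test (edgeR's quasi-likelihood test, Benjamini-Hochberg adjusted p under 0.05). Over all genes tested, 345 passed in either direction (2.02%), of which 279 rose (1.63%) and 66 fell (0.387%). With the experimental occasion as a block, 1853 genes passed in all, or 10.9%, and of the members again HMOX1 alone. Without spleen replicate 1, 5 members passed (HMOX1, HMOX2, FTH1 and FTL lower, IREB2 higher) against 37.9% of all genes. Without spleen replicate 2, HMOX1 and SLC25A37 passed against 17.3% of all genes. No member passed with a stricter filter on low counts or among protein-coding genes alone, where 1.51% and 1.54% of the genes passed. At an unadjusted p under 0.05, 3 members were lower in brain (HMOX1, HMOX2 and FTL) and none was higher, against 9.94% lower and 10.7% higher over all genes. The members' log2 fold changes, brain over spleen, had a median of 0.05, beside 0.04 over all genes tested. In 9 members the libraries from brain and spleen did not overlap, 4 of them higher and 5 lower in brain, while 57.0% of all genes tested showed no overlap (30.2% higher, 26.7% lower). SLC40A1 was the member whose groups overlapped.

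**Figure D2:**
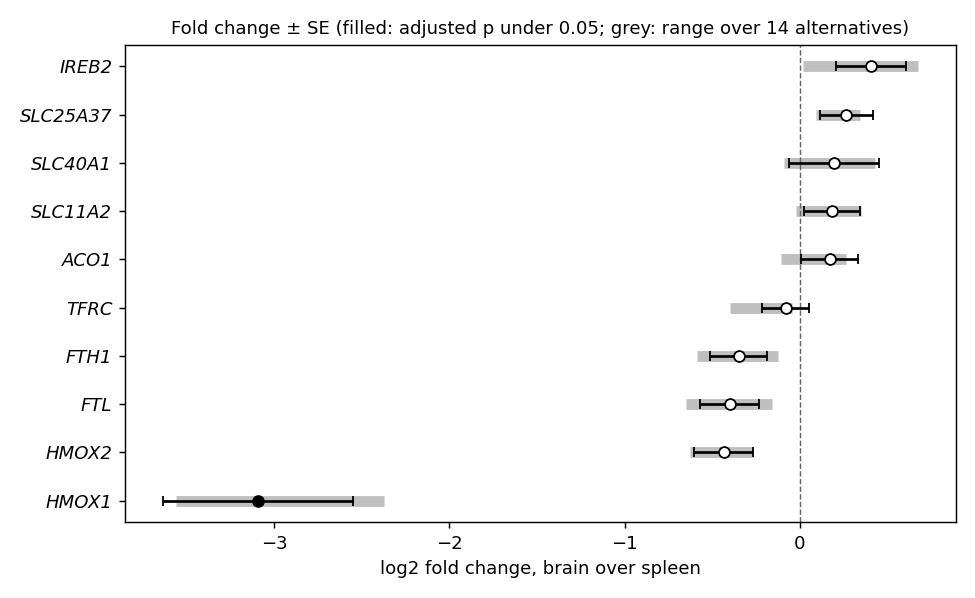
Log2 fold change of each member, brain over spleen, with the standard error as whiskers, a filled point for an adjusted p under 0.05 and a grey band for the range over 14 alternative fits. HMOX1 lies at -3.09 and the other 9 members lie between -0.44 and 0.41.

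HMOX1 (ENSG00000100292, chr22:35380361-35394214, plus strand) opens haem to release iron, carbon monoxide and biliverdin, and it is induced by haem and by oxidative stress. It had 8 and 7 counts in cells from brain, against 84 and 27 counts in cells from spleen. That is 0.216 and 0.205 CPM (counts scaled to 1e6 of the normalised library) in brain, against 2.55 and 1.07 CPM in spleen. The groups did not overlap, and the libraries from spleen differed from each other by more than those from brain. The log2 fold change, brain over spleen, was -3.09 ± 0.54 (SE, n = 2 libraries each, edgeR adjusted p = 0.0367). Pooled over libraries, the 15 counts from brain and 111 from spleen gave a CPM ratio of 0.111 (exact 95% interval 0.0599 to 0.190), an interval that covers counting error alone. HMOX1 was thus a rare message at both sites, at 0.371 and 0.314 TPM in brain against 2.20 and 0.817 TPM in spleen, where TPM is a level per transcript length. Its full-length coding transcript HMOX1-201 took 5 and 6.47 estimated counts in brain, against 79.7 and 25.6 estimated counts in spleen, where it made up 82.1% and 82.2% of the gene's TPM. A transcript with a retained intron, HMOX1-204, held 0.264 and 0.152 TPM in brain, against 0.394 and 0.146 TPM in spleen, with overlap between the groups.

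The call on HMOX1 ended with a stricter filter on low counts (adjusted p = 0.0571) and when protein-coding genes alone were tested (adjusted p = 0.0566). It was made in the other 12 of 14 alternatives, including each left-out library. Its log2 fold change became -2.37 when spleen replicate 1 was left out (adjusted p = 0.00373), and leaving out spleen replicate 2 gave -3.56 (adjusted p = 1.07e-05). In these bulk libraries, fewer cells that carry a message and less of it per cell cannot be told apart. Mouse transcripts took 2.24% and 1.45% of all estimated counts in brain, against 4.31% and 6.32% in spleen, higher in spleen as HMOX1 was, and their part in the HMOX1 counts was not tested. Within spleen, HMOX1 was higher in replicate 1 and the mouse share was higher in replicate 2. Of 16 human macrophage markers, 6 were at 0 in every library, among them the spleen macrophage genes SPIC, MARCO and VCAM1, and all 3 C1Q chains. The summed level of the 16 was 56.7 and 42.7 CPM in brain, against 61.0 and 51.8 CPM in spleen, with overlap. Most of that sum was CSF1R, at 30.3 and 22.9 CPM in brain and 29.0 and 26.2 CPM in spleen, and AIF1, at 18.9 and 14.1 CPM in brain against 25.2 and 19.9 CPM in spleen. CD68 and TYROBP were higher in both libraries from brain, while AIF1 and LYZ were lower in both. LYZ had 2.60 and 2.61 CPM in brain, against 3.85 and 3.44 CPM in spleen. Of the 6 markers tested, 2 were higher in brain without overlap (CD68 and ITGAM) and 2 were lower (AIF1 and LYZ). CD68 had 1.73 and 0.703 CPM in brain, against 0.364 and 0.277 CPM in spleen, and did not pass the test (log2 fold change 1.90 ± 0.55, adjusted p = 0.119). TYROBP, at most 0.322 CPM in any library, was not tested. Of 14 human red-cell markers, AHSP was at 0 in every library and the sum was 0.892 and 0.995 CPM in brain, against 1.06 and 0.515 CPM in spleen. Host macrophages and red cells are mouse cells, so these human markers do not measure them, and mouse counterparts were not examined.

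HMOX2 (ENSG00000103415, chr16:4474690-4510347, plus strand) is the constitutive haem oxygenase. It had 31.4 and 31.1 CPM in brain, against 37.9 and 46.7 CPM in spleen. Both libraries from brain were lower than both from spleen, with a log2 fold change of -0.44 ± 0.17, short of the threshold (adjusted p = 0.203). Without spleen replicate 1 it was -0.63 (adjusted p = 3.41e-05), while leaving out spleen replicate 2 gave -0.27 (adjusted p = 0.104). Per length HMOX2 was far above its inducible relative, by 102 and 119 times in brain and by 18.9 and 51.1 times in spleen (ratios of TPM, exact permutation p = 0.33 over 2 against 2 libraries, the smallest this design allows). HMOX2 exons overlap those of NMRAL1 on the opposite strand, and whether the counting used the strand is not given in the sources used here.

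**Figure D3:**
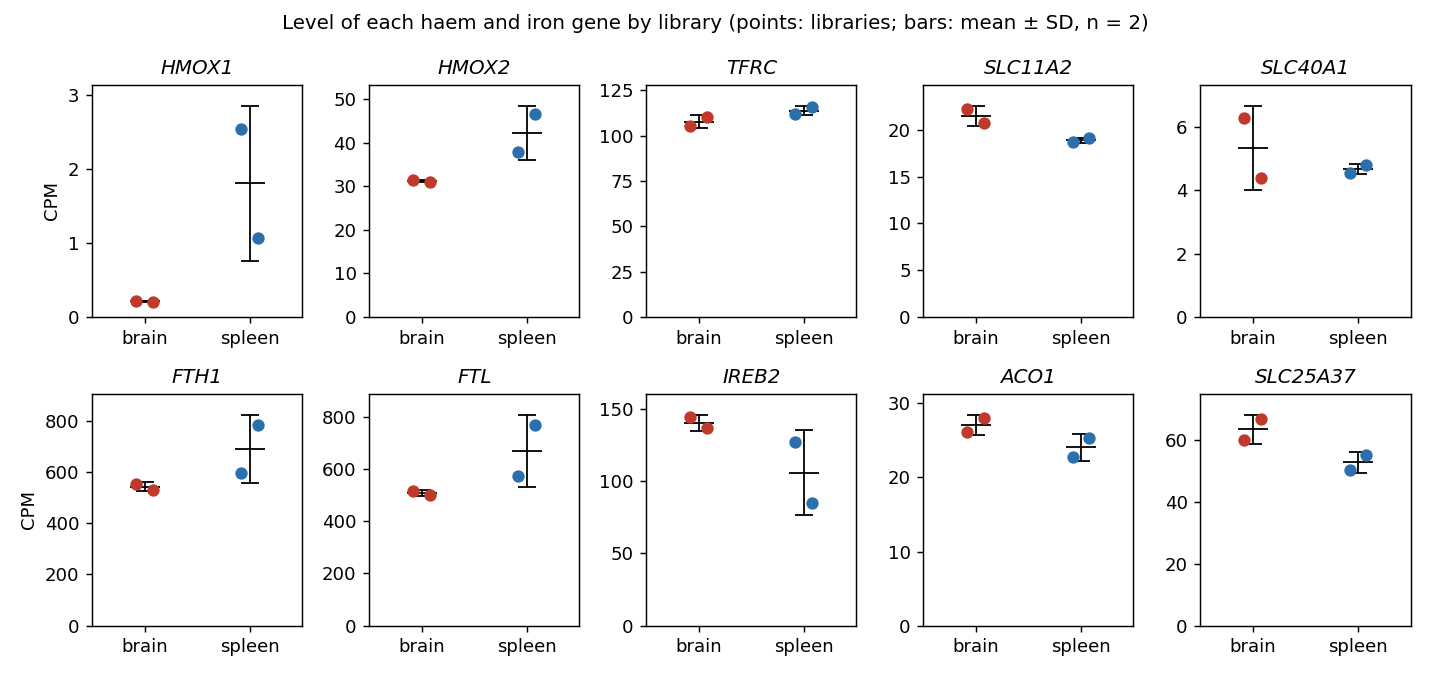
CPM of each of the 10 members in every library, a panel per gene with its own linear axis from 0, brain left of spleen, with points for libraries and a line with whiskers for mean and SD (n = 2). Both HMOX1 points from brain lie near 0.2 CPM, and spleen replicate 2 sets the spread of FTH1, FTL and IREB2 in spleen.

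The 2 ferritin chains were the most abundant members. FTH1 (ENSG00000167996, chr11:61959718-61967634, minus strand) encodes the heavy chain, which oxidises iron for storage. It had 555 and 530 CPM in brain, against 597 and 785 CPM in spleen. FTL (ENSG00000087086, chr19:48965309-48966879, plus strand) encodes the light chain, which helps the mineral core to form. It had 516 and 499 CPM in brain, against 572 and 768 CPM in spleen. Neither gene's groups overlapped, and in both the highest library was spleen replicate 2. The log2 fold change was -0.35 ± 0.16 for FTH1 (adjusted p = 0.276) and -0.40 ± 0.17 for FTL (adjusted p = 0.231), so neither passed the test. Without spleen replicate 1, both passed, with -0.58 for FTH1 (adjusted p = 1.74e-05) and -0.65 for FTL (adjusted p = 3.69e-06). Without spleen replicate 2, the library with the highest ferritin CPM, neither passed, with -0.13 for FTH1 (adjusted p = 0.422) and -0.16 for FTL (adjusted p = 0.275). The fit that passed rests on spleen replicate 2 alone for spleen and assumes that it varies like the brain group. On the TPM scale the FTH1 groups overlapped, with 1138 and 1185 TPM in brain and 1116 and 1275 TPM in spleen. The ratio of FTH1 to FTL TPM was 1.20 and 1.21 in brain, against 1.13 and 1.08 in spleen (exact permutation p = 0.33, the smallest possible).

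Ferritin genes have many processed copies in the genome, among which reads can be split. The 23 annotated copies of FTH1 held 33 and 25 counts in brain and 26 and 25 counts in spleen, at most 0.161% of the counts of FTH1. The 16 copies of FTL held 10 and 5 counts in brain and 1 and 4 counts in spleen. Of the FTH1 transcripts, FTH1-212 was the most abundant, with 779 and 776 TPM in brain and 784 and 934 TPM in spleen. FTH1-206 was higher in brain in every library, at 201 and 256 TPM, against 143 and 83.9 TPM in spleen. FTH1-208, annotated for nonsense-mediated decay, held 24.4 and 20.3 TPM in brain and 23.5 and 148 TPM in spleen, so that a single library, spleen replicate 2, stood out. Transcripts with the hairpin match carried at least 98.6% of FTH1 TPM and all of FTL TPM in each library. These transcript levels are estimates with no error of their own and were not tested.

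Neither of the uptake genes passed the test. TFRC (ENSG00000072274, chr3:196012511-196082153, minus strand) encodes the transferrin receptor, the main iron entry of dividing cells. It had 105 and 110 CPM in brain, against 112 and 116 CPM in spleen. Both libraries from brain were lower than both from spleen by a small margin, with a log2 fold change of -0.08 ± 0.13 (adjusted p = 0.771). With the trend over base composition and length removed it was -0.40 (adjusted p = 0.17). On the TPM scale the order turned, with 36.4 and 47.3 TPM in brain, against 35.3 and 34.9 TPM in spleen. The groups overlapped when TPM was rescaled to human transcripts alone, at 37.36 and 48.04 TPM in brain and 37.35 and 37.58 TPM in spleen. The 4 hairpins shown above lie at bases 3295, 3699, 3764 and 3811 of its 5012-base canonical transcript, and transcripts that hold a match carried 88.2% and 79.0% of TFRC TPM in brain and 89.6% and 79.5% in spleen. TFRC-201 held 25.8 and 27.4 TPM in brain and 25.5 and 18.0 TPM in spleen.

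SLC11A2 (ENSG00000110911, chr12:50979401-51028566, minus strand) encodes DMT1, which carries iron out of the endosome into the cytosol. It had 22.2 and 20.7 CPM in brain, against 18.7 and 19.1 CPM in spleen. The groups did not overlap, and the log2 fold change of 0.18 ± 0.16 did not pass the test (adjusted p = 0.549). For this gene the transcripts that GENCODE release 44 assigns to it summed to between 50.2% and 57.0% of the gene table's counts, while for the other 9 members both agreed within 2 counts. The form that ends in the hairpin and the form without it are both known for this gene. Transcripts with the match carried 37.3% and 31.0% of SLC11A2 TPM in brain and 37.6% and 32.7% in spleen, with overlap between the groups. These shares are of the assigned transcripts alone, so the share in the whole message of the gene is not known.

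SLC40A1 (ENSG00000138449, chr2:189560590-189583758, minus strand) encodes ferroportin, the only known iron exporter of the cell. It had 6.27 and 4.39 CPM in brain and 4.55 and 4.79 CPM in spleen. Both spleen values lay between those from brain, and the log2 fold change was 0.19 ± 0.26 (adjusted p = 0.703). On the TPM scale the groups did not overlap, with 2.58 and 1.96 TPM in brain, against 1.78 and 1.60 TPM in spleen. The hormone that removes ferroportin from the membrane, hepcidin, is encoded by HAMP (chr19:35280716-35285143) and is no member of the 10. HAMP rose in cells from brain, with 95 and 82 counts in brain against 16 and 17 counts in spleen. The log2 fold change was 2.11 ± 0.34 (n = 2 libraries each, edgeR adjusted p = 0.0288), and the pooled CPM ratio was 4.39 (exact 95% interval 3.01 to 6.57, counting error alone). It was called in 13 of 14 alternatives, and the call ended in DESeq2 with the block (adjusted p = 0.0866). Per length HAMP stood at 6.33 and 6.10 TPM in brain, against 0.855 and 0.933 TPM in spleen.

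SLC25A37 (ENSG00000147454, chr8:23528956-23575463, plus strand) encodes mitoferrin 1, which brings iron into mitochondria and is best known from red-cell precursors. It had 60.1 and 66.8 CPM in brain, against 50.4 and 55.1 CPM in spleen. Both libraries from brain were higher, with a log2 fold change of 0.27 ± 0.15, short of the threshold (adjusted p = 0.359). Without spleen replicate 2 it was 0.34 and passed (adjusted p = 0.019). The canonical coding transcript, SLC25A37-206, had overlapping groups, at 7.23 and 8.35 TPM in brain and 7.09 and 7.73 TPM in spleen. Transcripts with a retained intron summed to 12.9 and 15.2 TPM in brain, against 8.32 and 7.19 TPM in spleen. They made up 54.5% and 55.4% of the gene's TPM in brain, against 46.7% and 44.2% in spleen. Its widely expressed relative SLC25A28, mitoferrin 2, was lower in both libraries from brain, with 28.1 and 31.6 TPM in brain against 37.5 and 35.0 TPM in spleen. The ratio of mitoferrin 1 to mitoferrin 2 was 0.843 and 0.869 in brain, against 0.475 and 0.465 in spleen, with no overlap (exact permutation p = 0.33, the smallest possible).

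The sensors were IREB2 and ACO1. IREB2 (ENSG00000136381, chr15:78437431-78501453, plus strand) encodes IRP2, which is degraded when iron is plentiful. It had 144 and 136 CPM in brain, against 127 and 84.9 CPM in spleen. The groups did not overlap, and spleen replicate 2 was far below the other 3 libraries. The log2 fold change was 0.41 ± 0.20 (adjusted p = 0.297). Without spleen replicate 1 it was 0.67 and passed (adjusted p = 1.25e-06), while leaving out spleen replicate 2 gave 0.16 (adjusted p = 0.239). With the trend over base composition and length removed it was 0.02. At 38.2% G and C, IREB2 lies in the lowest of 5 equal classes of tested genes. Genes of that class deviated by -0.29 on the log2 scale in spleen replicate 2, against 0.10 to 0.11 in the other 3 libraries.

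Of the IREB2 transcripts, the full-length IREB2-201 held 29.6 and 29.2 TPM in brain, against 25.1 and 14.9 TPM in spleen. The share of IREB2 TPM in this transcript, the one with the hairpin match, was 69.9% and 62.2% in brain, against 88.8% and 86.3% in spleen. The short IREB2-204, of 268 bases, held 8.75 and 12.8 TPM in brain, against 1.79 and 1.63 TPM in spleen. TPM of so short a transcript rests on few usable positions and was not tested. ACO1 (ENSG00000122729, chr9:32384603-32454769, plus strand) encodes IRP1, an aconitase with an iron-sulfur cluster that binds hairpins when the cluster is lost. It had 26.1 and 28.0 CPM in brain, against 22.7 and 25.3 CPM in spleen. The groups did not overlap, and the log2 fold change of 0.17 ± 0.16 did not pass the test (adjusted p = 0.578). The ratio of IREB2 to ACO1 TPM was 4.46 and 4.33 in brain, against 3.55 and 2.22 in spleen (exact permutation p = 0.33, the smallest possible). This ratio includes the short IREB2-204, which held 20.6% and 27.2% of IREB2 TPM in brain, against 6.33% and 9.44% in spleen. In brain those shares rest on 26.1 and 30.3 estimated counts.

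**Figure D4:**
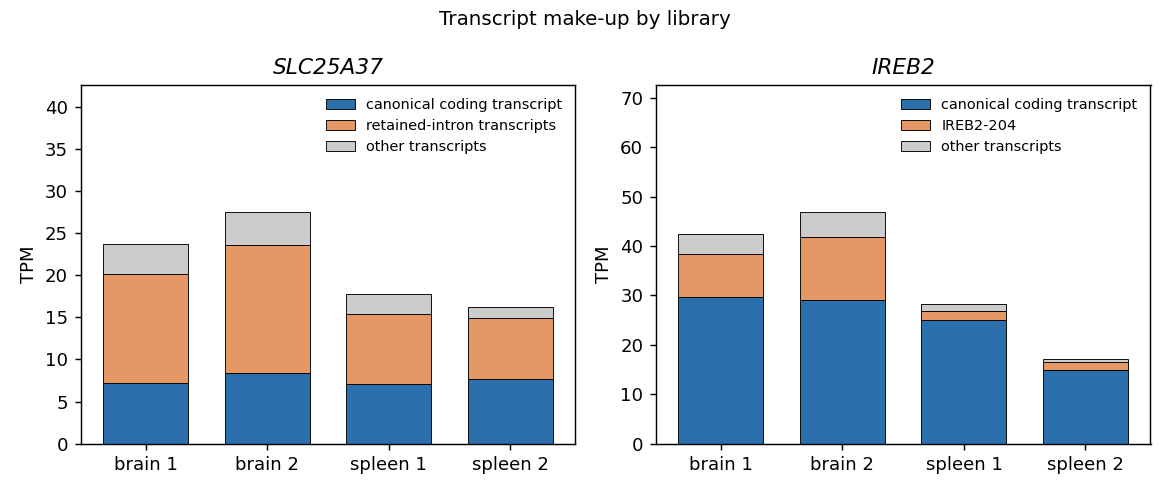
TPM of SLC25A37 (left) and IREB2 (right) in every library, brain left of spleen, as stacked bars of the canonical coding transcript, the retained-intron transcripts or IREB2-204, and all other transcripts. The middle segment is larger in both libraries from brain than in both from spleen, at 12.9 and 15.2 against 8.32 and 7.19 TPM for SLC25A37.

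On the TPM scale the order of the members was led by FTH1 and FTL at both sites, and HMOX1 was the lowest in both brain libraries and, in spleen replicate 2, the lowest again. In spleen replicate 1 SLC40A1 stood below it, at 1.78 against 2.20 TPM. Between these ends, HMOX2, IREB2, TFRC and SLC25A37 followed with 16.3 to 47.3 TPM over all libraries, where the ranges of HMOX2, IREB2 and TFRC over the 4 libraries overlapped. SLC25A37, at 16.3 to 27.5 TPM, overlapped with IREB2 and lay below HMOX2 and TFRC. ACO1 and SLC11A2 came next at 5.41 to 10.8 TPM. The balance of import against storage, given as the sum of FTH1 and FTL TPM over TFRC TPM, was 57.3 and 45.7 in brain, against 59.7 and 70.2 in spleen. The groups did not overlap, and the log2 of TFRC over the ferritins was higher in brain by 0.34 (exact permutation p = 0.33, the smallest possible). The TFRC TPM in this ratio includes transcripts outside the protein-coding class. Those with a retained intron held 5.97 and 10.7 TPM in brain, against 5.56 and 3.46 TPM in spleen. Protein-coding TFRC transcripts alone held 27.3 and 29.6 TPM in brain and 27.6 and 25.5 TPM in spleen, with overlap.

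Wider lists of the same pathways gave 1 called gene among those tested, which was HAMP, beside 2.02% called over all genes tested. Of 13 haem synthesis genes 12 were tested and none passed, at a median log2 fold change of -0.22. Among them ALAS1, the first and rate-limiting enzyme, averaged 60.2 ± 0.380 CPM in brain and 69.1 ± 8.88 CPM in spleen (SD, n = 2 each). UROD, a cytosolic enzyme of the pathway, had 45.7 and 43.1 CPM in brain, against 58.4 and 60.9 CPM in spleen (log2 fold change -0.43 ± 0.15, adjusted p = 0.166). Of 11 genes of haem transport and degradation 10 were tested and none passed, at a median of -0.02. PGRMC1, a haem-binding membrane protein, had 63.4 and 60.8 CPM in brain, against 83.4 and 79.6 CPM in spleen (adjusted p = 0.180). NFE2L2, the oxidative stress factor NRF2 that drives HMOX1, had 65.2 and 65.9 CPM in brain and 68.7 and 38.1 CPM in spleen, with overlap.

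BACH1, the repressor of HMOX1 that haem inactivates, was singled out after its values had been seen. It had 64.7 and 58.9 CPM in brain, against 43.8 and 25.8 CPM in spleen. Both libraries from brain were higher, and the log2 fold change of 0.83 ± 0.26 did not pass the test (adjusted p = 0.149). With the experimental occasion as a block it passed (adjusted p = 0.00201), in a fit where 10.9% of all genes passed. It also passed without a filter on low counts, where 2123 genes passed in all. BACH1 was called in 5 of 14 alternatives. With the trend over base composition and length removed the fold change was 0.48 (adjusted p = 0.0723).

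Of 21 iron trafficking genes 15 were tested, of which HAMP rose and none fell, at a median of -0.02 (0.26 without spleen replicate 1). The 7 sensing partners and further hairpin messages were all tested and none passed, at a median of 0.05. SKP1, part of the ligase that degrades IRP2, had a log2 fold change of -0.26 (adjusted p = 0.317). All 25 genes of iron-sulfur cluster assembly were tested and none passed. Their median was -0.30, with 21 of 25 fold changes below 0, beside a median of 0.04 and 7976 of 17075 below 0 over all genes. On the CPM scale, both libraries from brain were lower than both from spleen in 17 of the 25, beside 26.7% of all genes. On the TPM scale the groups overlapped in some of these, among them NFS1, LYRM4, HSCB, ISCA1, CIAO2B and CIAO3. In the edgeR test, 7 of the 25 were lower at an unadjusted p under 0.05, beside 9.94% of all genes. Leaving out spleen replicate 1 gave a median of -0.43, and leaving out spleen replicate 2 gave -0.17. HSPA9, the mitochondrial chaperone of cluster transfer, had 322 and 311 CPM in brain, against 381 and 363 CPM in spleen (adjusted p = 0.342). Its groups overlapped in TPM, with 142 and 153 TPM in brain and 158 and 136 TPM in spleen. MMS19, which delivers clusters to DNA enzymes, had 94.5 and 95.9 CPM in brain and 86.0 and 105 CPM in spleen, with overlap.

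**Figure D5:**
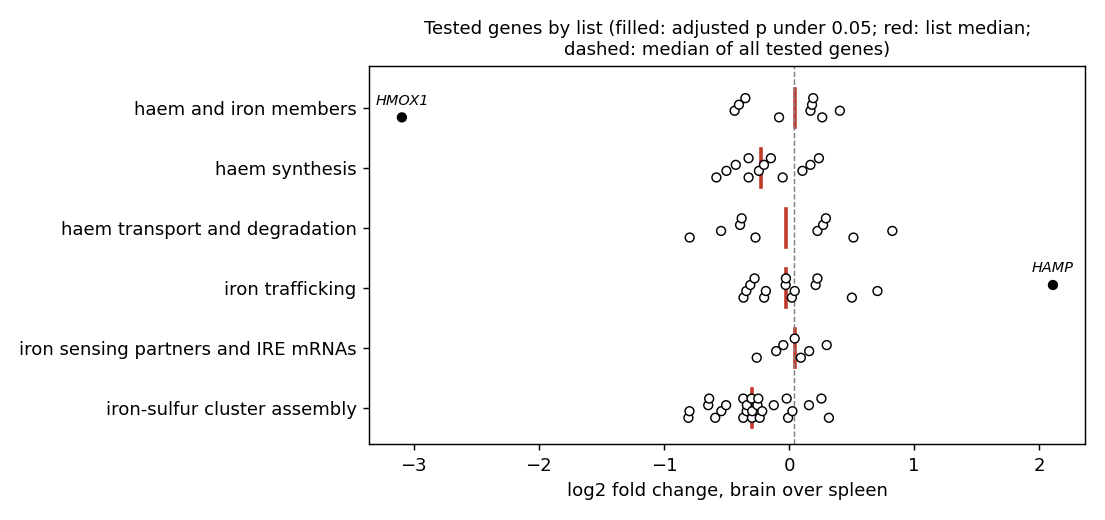
Log2 fold changes, brain over spleen, of the tested members and of the tested genes of each wider iron and haem list, a point per gene (filled for an adjusted p under 0.05), with the list's median as a red line and that of all tested genes dashed. HMOX1 lies at -3.09 and HAMP at 2.11, and 21 of the 25 iron-sulfur cluster genes lie below 0.

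Among 9107 protein-coding genes of at least 10 CPM, the 3 whose centred log2 levels over the 4 libraries were most like those of HMOX1 were OLFML3, DIPK1C and CD34. Their root-mean-square differences from it were 0.435, 0.617 and 0.661 on the log2 scale. OLFML3 had 9.79 and 4.10 CPM in brain, against 47.1 and 20.3 CPM in spleen, and did not pass the test (log2 fold change -2.28, adjusted p = 0.222). CD34, a surface marker of early blood cells, had 135 and 104 CPM in brain, against 337 and 280 CPM in spleen, and fell (log2 fold change -1.37, adjusted p = 0.0126). In both, as in HMOX1, spleen replicate 1 was the highest library. The genes were chosen for likeness over these same 4 libraries, so the shared pattern follows from the choice.

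The libraries held 36913437 and 33055465 gene counts in brain and 32972842 and 26266136 in spleen, and 3 counts, which a count of 0 still allows, equal 0.0813 to 0.114 CPM. All 10 B-cell precursor markers were tested, and of these CD24 and CD22 rose and CD34 fell. Over all genes tested, 1.63% rose and 0.387% fell. Their summed level was 2524 and 2335 CPM in brain and 2090 and 2168 CPM in spleen. Of 12 human brain markers 3 were tested and none passed. The sums were 187 and 157 CPM in brain against 127 and 118 CPM in spleen, most of it MBP and SYT1. Both of these were higher in both libraries from brain. The third, TMEM119, was lower in both, at 6.25 and 2.58 CPM in brain against 9.86 and 11.7 CPM in spleen. SNAP25 and PTGDS were at 0 in every library. The brain cells of the host are mouse cells, which these human markers do not measure. The members together summed to 1467 and 1427 CPM in brain, against 1545 and 1906 CPM in spleen, of which the ferritins made up the larger part. Spleen replicate 2 stood apart in base composition.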

How the data were processed

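Libraries were made with a stranded mRNA kit, per the labels' protocols. The submitters' processing notes name kallisto 0.42.4, cutadapt 1.5, bcl2fastq 1.8.4 and DESeq2, and the builds GRCm38 and GRCh38. Roles, settings, strand option and annotation release were not stated in what was used here. The deposited transcript files give an estimated count and TPM, a level per length scaled over 199596 human and 104229 mouse transcripts together. The deposited gene table gives whole-number counts, which for 9 of the 10 members equal the transcript sums within 2 counts. Of the deposited tables' columns, 2 match no sample of the series and were not used. A deposited table of regularised log2 values was not used.

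Identifiers were matched to GENCODE release 44 (56322 of 65217, 86.4%). Brain was compared with spleen by edgeR 4.0.16 (quasi-likelihood, robust, TMM factors, filterByExpr) under R 4.3.3, with Benjamini-Hochberg adjustment over 17075 genes. CPM values use TMM factors and are means ± SD over libraries where so given. Alternatives used DESeq2 1.42.0, other filters and factors, a smooth trend over base composition and length (mgcv 1.9.3), left-out libraries and the experimental occasion as a block. On simulated data, the test called 56% of genes changed by 1 on the log2 scale and 100% of those changed by 2, with 6 false calls among 17075 genes. The simulation gave all genes and both sites 1 common dispersion. It changed only genes above a mean count that HMOX1 does not reach, so these rates do not carry over to HMOX1.

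Within each group the libraries differed beyond sampling noise (chi-square per gene, averaged over genes, 9.36 in brain and 64.4 in spleen) and were counted as replicates as labelled. Per the labels, a replicate number marks an occasion, which pairs the libraries. Across genes, same-numbered libraries deviated from their groups with Pearson's r = 0.00207 and Spearman's rho = -0.0248. Intervals and floors cover counting error alone, because without molecular identifiers reads can be copies of 1 molecule.

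The members and lists were chosen with earlier results of these data known. All 10 members are named. Of each wider list, up to 4 called genes in each direction are named, or the 2 of highest level where none was called. Of the genes this names, 1 is not reported here. For a called member, the 3 protein-coding genes of most similar profile are named (pseudocount 0.1 CPM). Transcripts are named from among those with at least 10% of the gene's TPM in any library. Mouse transcripts were used as a sum only.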

Additional observations from a re-analysis of the deposited data

How the results depend on the processing

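Of all genes, 345 passed in the fit as reported. The count was 957 in DESeq2, 2123 without a filter on low counts, 211 with a stricter filter, 802 with the trend over base composition and length removed and 201 over protein-coding genes alone. With the replicate block it was 1853, and 2274 with block and trend removal together. DESeq2 with the block called 421, fewer than its 957 without it. Leaving out 1 library gave 404 to 6807. Higher and lower calls split 279 to 66 as reported, 560 to 397 in DESeq2, 459 to 343 with the trend removed, 1278 to 575 with the block and 1112 to 1162 with both. The block changed no call among the 10 members.

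The count of members that fell, 1 as reported, was 0 with the stricter filter and 0 over protein-coding genes alone, and 1 to 4 with 1 library left out. The count of members that rose was 0 to 1 with 1 library left out, IREB2 without spleen replicate 1 and SLC25A37 without spleen replicate 2. Directions turned in 3 members that had not passed. With the trend removed, SLC11A2 was at -0.024, SLC40A1 at -0.0052 and ACO1 at -0.11. With trend removal and block, they were at -0.021, -0.012 and -0.10. With 1 library left out, SLC40A1 ranged from -0.091 without brain replicate 1 to 0.43 without brain replicate 2. The members' median was -0.19 with the trend removed and -0.18 with the block added to it. The causes were not tested. With 2 libraries a group, 1 of them decides many calls, and the 7 to 8 HMOX1 counts in brain limit its precision.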
